A study of Homo sapiens with 17 samples.

Results

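Respiratory complex I, the NADH dehydrogenase that opens the mitochondrial respiratory chain, was followed in IMR-90 cells made senescent with etoposide. Its genes were taken as all named entries whose symbol is NDUF, then A, AB, AF, B, C, S or V, then a number, which selected 46 of 41040 named genes without regard to their counts. By role these are 7 core subunits, 30 accessory subunits including the acyl carrier protein NDUFAB1, 8 assembly factors, and NDUFA4, which keeps its complex I name but is now counted with complex IV. IMR-90 is a diploid fibroblast line from human fetal lung, and etoposide poisons topoisomerase II and leaves DNA double-strand breaks. Untreated cells formed week 0 (n = 5, replicates 1, 3, 4, 5 and 6), and cells given 20 µM etoposide for 48 h and then cultured without it formed week 1 (day 7, n = 6) and week 4 (day 28, n = 6). All groups are the same line in the same medium. No untreated cells were sampled after week 0, so treatment and time in culture cannot be told apart. Whether replicates were separate cultures is not said in the labels, and p-values then cover no more than the scatter of these libraries, which may be technical.

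Complex I takes electrons from NADH in the matrix, passes them along iron-sulfur clusters to ubiquinone, and uses the energy to pump protons across the inner membrane. It is built as an L, with a matrix arm that holds the NADH-oxidising (N) and quinone-reducing (Q) parts and a membrane arm that pumps. The core subunits carry out catalysis and are conserved in bacteria, the accessory subunits surround and stabilise them, and assembly factors help to build the complex but are absent from the finished enzyme. The core of the membrane arm is encoded in mitochondrial DNA.

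Bulk RNA-seq gave 77.2 to 102.8 M counts on named genes per library. Levels are CPM, a gene's counts relative to the library total, on library sizes scaled by the trimmed mean of M-values (TMM). CDKN1A, the cell-cycle inhibitor p21, averaged 284 ± 14.2 CPM at week 0 (SD, n = 5), 2141 ± 53.7 at week 1 and 1276 ± 43.3 at week 4 (SD, n = 6 each), and the lamin gene LMNB1 averaged 147 ± 8.26, 9.83 ± 1.2 and 18.4 ± 1.43 CPM. All 10 fibroblast markers were listed with counts, and their sum was 29809 to 35777 CPM at week 0, 43132 to 45966 at week 1 and 57635 to 60643 at week 4. This sum was carried by COL1A1 (means 16897, 20357 and 28475 CPM) and COL1A2 (8861, 17561 and 20872 CPM). PDGFRA, DCN and VIM averaged less at week 4 than at week 0, and the other fibroblast markers more. The 6 epithelial markers summed to 63.1 to 71.1, 246 to 286 and 207 to 231 CPM, carried by the keratins KRT8, KRT18 and KRT19 while EPCAM and CDH1 averaged at most 0.319 and 0.181 CPM in any group. The 5 leukocyte markers summed to at most 0.488 CPM in any library. The 5 endothelial markers summed to 54.6 to 93.5 CPM, carried by TEK, and the 4 smooth muscle and pericyte markers to 179 to 250 CPM, carried by CSPG4. The part of these markers in the results was not tested.

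Libraries of the untreated group were not alike, and this bears on each comparison with week 0. Summed over the 46 genes, complex I stood at 2328, 1712, 2112, 1566 and 1458 CPM in week 0 replicates 1, 3, 4, 5 and 6. The sum ran from 1582 through a median of 1629 to 1727 CPM at week 1, and from 1327 through 1425 to 1465 CPM at week 4. Week 0 replicates 1 and 4 lay above all other libraries, week 0 replicates 3, 5 and 6 overlapped both treated groups in part, and all week 4 libraries lay below all week 1 libraries. Replicates 1 and 4 were both above replicates 3, 5 and 6 in 33 of the 44 complex I genes with enough counts to be tested, against 22.2% of all 16891 tested genes. Ribosomal protein genes took 6.38% and 5.62% of the counts in the same pair, against 3.48% to 4.20% in the other week 0 libraries, and their part in the result was not tested. The excess was seen in short and long genes: the median ratio of replicate 1 to the median of replicates 3, 5 and 6 was 1.49 over the 20 shorter and 1.36 over the 21 longer members. Values without this pair are therefore given beside those with all libraries for the main counts, and the members whose call it changed are named.

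**Figure D1:**
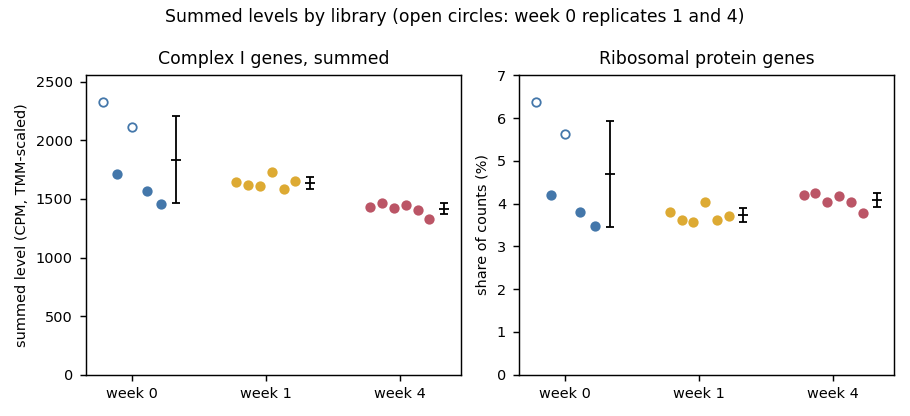
Each point is a library: the left panel plots the summed level of the 46 complex I genes (CPM, TMM-scaled), the right panel the share of counts on ribosomal protein genes (%), and bars give the mean ± SD of the group. Open circles mark week 0 replicates 1 and 4, which stand highest in both panels, while the week 4 sums, at 1327 to 1465 CPM, lie below all week 1 sums.

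At week 4 most complex I genes were lower than in untreated cells, by modest amounts, and many were also lower at week 4 than at week 1. With edgeR's quasi-likelihood test and a call at a Benjamini-Hochberg adjusted p under 0.05 over all tested genes, 34 of 44 members fell and 1 rose at week 4 against week 0, with a median log2 fold change of -0.39. Over all tested genes 33.7% were called lower and 33.9% higher in that comparison, with a median of 0.00. In bulk RNA, fewer transcripts per cell in all cells and fewer cells with the transcripts cannot be told apart. Without the week 0 pair 23 members fell and 2 rose with a median of -0.18, against a background of 31.8% lower and 33.1% higher. All 23 were among the 34. The 11 no longer called were NDUFA2, NDUFA11, NDUFAF6, NDUFAF7, NDUFB2, NDUFB5, NDUFB7, NDUFB9, NDUFB10, NDUFS4 and NDUFS5.

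At week 1 the balance depended on the untreated libraries used. With all of them 16 of 44 members fell and 4 rose, with a median log2 fold change of -0.18, where 34% of all tested genes were called lower and 32.9% higher. Without the week 0 pair 9 fell and 11 rose and the median turned to 0.06, where 32.1% of all genes were lower and 32.7% higher. Leaving out only replicate 1 gave 10 falls and 6 rises, and leaving out only replicate 4 gave 10 and 5. In both fits 32.8% of all tested genes were lower and 32.4% higher. Upper-quartile scaling gave 11 falls and 10 rises, where 30.1% of all tested genes were lower and 36.7% higher. A correction for gene length gave 13 and 6, where 34.4% were lower and 33.1% higher. The genes that fell with and without the pair were NDUFA5, NDUFA9, NDUFA12, NDUFAF4, NDUFAF5, NDUFB4, NDUFB6, NDUFS1 and NDUFS3. Those that rose in both were NDUFAF8, NDUFC1, NDUFC2 and NDUFV3. Falls called only with the pair were those of NDUFA4, NDUFA8, NDUFAB1, NDUFAF6, NDUFB1, NDUFB3 and NDUFV2. Rises called only without it were those of NDUFA1, NDUFA2, NDUFA11, NDUFB2, NDUFB8, NDUFB11 and NDUFS4.

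The comparison of the treated groups takes no level from week 0. The week 0 libraries still enter its spread, its filter on low counts, its TMM scaling and, through the genes tested, its adjusted p. From week 1 to week 4, 17 of 44 members fell and 0 were called higher, with a median log2 fold change of -0.22, against 18.6% of all tested genes lower and 21.8% higher. With edgeR at an unadjusted p under 0.05, and with DESeq2 and limma-voom, 0 were higher as well. Without the week 0 pair the median was again -0.22 and 29 members fell, the 17 among them. NDUFA9 alone rose, and 22.8% of all genes were lower and 24.9% higher. The 12 added falls were those of NDUFA2, NDUFA4, NDUFAB1, NDUFAF4, NDUFB1, NDUFB5, NDUFB7, NDUFB10, NDUFC2, NDUFS1, NDUFS4 and NDUFS5. With only the week 1 and week 4 libraries in the fit, 32 of 43 fell and NDUFA9 rose, with a median of -0.23. Of all genes, 26.1% were then lower and 25.0% higher. Of the 44 members, 15 were both called lower and free of any overlap between week 1 and week 4 libraries, against 13.7% of all tested genes. Counted among called falls only, that is 15 of 17 members, and 2320 of 3150 of all genes called lower. The like counts were 5 of 44 members at week 1 against week 0, where 23.9% of all tested genes were. At week 4 against week 0 they were 16 of 44, where 23.6% of all tested genes were.

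Most of these differences were small. When a change beyond 1.2-fold was required, 8 members fell and 2 rose at week 1. Against week 0, 19 fell at week 4, and 3 fell from week 1 to week 4. Of all tested genes, 23.7% were then called lower and 24.4% higher at week 1. The shares were 23.2% and 24.8% at week 4, and 4.67% and 9.23% from week 1 to week 4. TMM scaling itself moved the median over all tested genes, as a log2 difference, from -0.17, -0.18 and -0.02 in the 3 comparisons to -0.02, 0.01 and 0.01, and changes are relative to it. The complex I medians of the same log2 levels were -0.30, -0.56 and -0.25 unscaled and -0.14, -0.37 and -0.22 scaled.

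**Figure D2:**
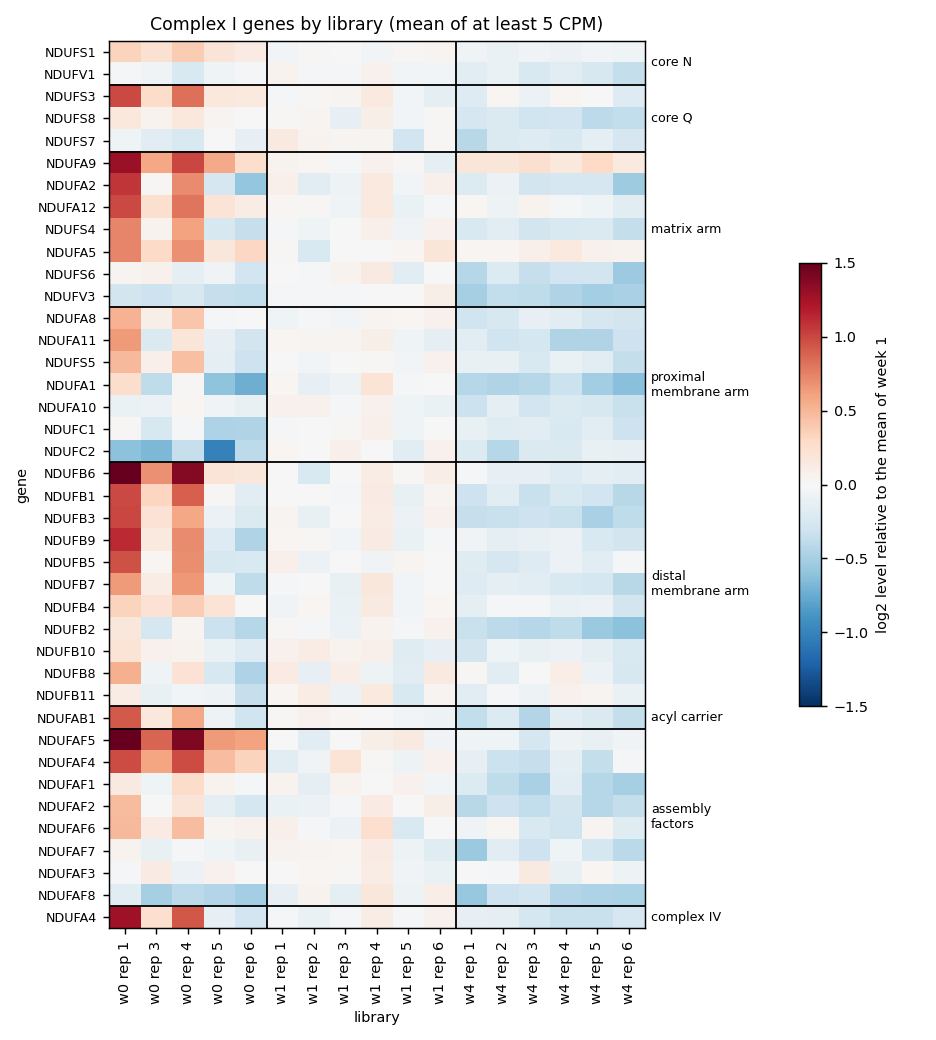
Rows are 40 complex I genes with a mean of at least 5 CPM, by role, columns are the 17 libraries, and colour is the log2 level relative to the gene's mean at week 1 (the scale stops at 1.5). The columns of week 0 replicates 1 and 4 hold the darkest red, and most rows are pale blue at week 4.

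The promoters of 4 members are shown because of how these genes changed: among members with a mean of at least 5 CPM, NDUFAF5, NDUFB6 and NDUFAF4 had the most negative log2 fold changes at week 4 against week 0, and NDUFV3 rose at week 1 and fell from there to week 4. Each run covers 250 bases before to 50 after the RefSeq gene start on GRCh38.p14, read 5′ to 3′ on the gene's strand. Capitals mark exact matches, on either strand, to letters typical of binding sites for factors that act on respiratory or cell-cycle genes. NDUFAF5 lies on chr20:13784778-13785077 (plus strand) and its capitals are overlapping matches to the NRF1 letters. NDUFAF4 lies on chr6:96897842-96898141 (minus strand) and has an ETS match followed by an NRF1 match. NDUFB6 lies on chr9:32573110-32573409 (minus strand) with an E2F match, and NDUFV3 on chr21:42893059-42893358 (plus strand) with GC boxes on either strand.
NDUFAF5 promoter: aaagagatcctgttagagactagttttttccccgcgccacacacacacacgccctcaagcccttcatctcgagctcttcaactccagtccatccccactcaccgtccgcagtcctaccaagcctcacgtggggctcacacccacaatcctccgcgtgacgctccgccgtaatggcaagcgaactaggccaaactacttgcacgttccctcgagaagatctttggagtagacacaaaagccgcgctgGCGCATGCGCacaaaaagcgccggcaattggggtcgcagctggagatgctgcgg
NDUFAF4 promoter: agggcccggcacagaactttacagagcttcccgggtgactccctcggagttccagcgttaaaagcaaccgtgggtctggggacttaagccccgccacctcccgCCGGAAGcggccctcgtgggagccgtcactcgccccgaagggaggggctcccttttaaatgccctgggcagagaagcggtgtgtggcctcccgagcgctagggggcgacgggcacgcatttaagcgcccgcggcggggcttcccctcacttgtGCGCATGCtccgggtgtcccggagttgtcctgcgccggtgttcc
NDUFB6 promoter: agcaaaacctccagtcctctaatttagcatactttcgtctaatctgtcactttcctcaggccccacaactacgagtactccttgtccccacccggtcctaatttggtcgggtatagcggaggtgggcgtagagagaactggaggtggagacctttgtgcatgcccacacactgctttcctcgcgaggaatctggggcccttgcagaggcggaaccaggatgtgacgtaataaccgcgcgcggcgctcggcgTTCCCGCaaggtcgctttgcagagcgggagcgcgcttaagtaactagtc
NDUFV3 promoter: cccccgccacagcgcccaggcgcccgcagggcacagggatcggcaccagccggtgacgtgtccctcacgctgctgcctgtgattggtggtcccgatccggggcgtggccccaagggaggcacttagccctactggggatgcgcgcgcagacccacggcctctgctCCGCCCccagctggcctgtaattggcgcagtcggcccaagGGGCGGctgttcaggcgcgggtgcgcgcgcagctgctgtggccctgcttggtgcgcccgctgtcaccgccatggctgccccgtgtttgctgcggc

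A RefSeq promoter was found for 39 of the 46 members. The NRF1 letters GCGCATGC stood in 8 of them (20.5%), against 3.68% of 27305 genes. NRF1, nuclear respiratory factor 1, is an activator of nuclear genes for mitochondria. The YY1 letters AAGATGGC were in 8 members (20.5%, against 3.52%), the ETS letters CCGGAAG, which GABPA binds, in 7 (17.9%, against 12.2%), and the GC box GGGCGG, which SP1 binds, in 25 (64.1%, against 48.3%). The E2F letters TTCCCGC were in 6 (15.4%, against 7.82%) and the ESRRA letters CAAGGTCA in 1 (2.56%, against 1.60%). None of the 6 motifs contains another. At week 4 against week 0, where 34 of 44 tested members and 33.7% of all tested genes were called lower, the count was 6 of 7 tested members with the NRF1 letters, 4 of 7 with the ETS letters, 3 of 6 with the YY1 letters, 15 of 24 with the GC box, 3 of 6 with the E2F letters and 1 of 1 with the ESRRA letters. A match describes the letters in this window and not a bound site.

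Of the 7 core subunits, 5 fell at week 4 against week 0 with and without the week 0 pair. Over all tested genes 33.7% were called lower with the pair and 31.8% without it. The core subunits had a median log2 fold change of -0.32 with and -0.25 without the pair. NDUFS1, the largest core subunit of the N part and a carrier of iron-sulfur clusters, was lower in all treated libraries. Its levels were 130, 121, 134, 118 and 113 CPM in week 0 replicates 1, 3, 4, 5 and 6, then 101, 104 and 106 CPM at week 1 (lowest, median and highest) and 96.1, 99.1 and 99.9 at week 4. All untreated libraries lay above all treated ones. The log2 fold change was -0.25 ± 0.04 (SE) at week 1 (adjusted p = 1.81e-05) and -0.32 ± 0.04 at week 4 (adjusted p = 7.37e-07), and without the pair -0.19 and -0.25. Between weeks 1 and 4 it was -0.07 ± 0.04 (adjusted p = 0.198), and it was called without the pair (-0.07, adjusted p = 0.0466). Its week 1 and week 4 libraries did not overlap.

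NDUFV1, which binds the flavin that first accepts electrons from NADH, stood at 92.6, 91.3, 80.8, 90.4 and 92.7 CPM in the same 5 untreated libraries, at 92.0, 93.5 and 99.3 CPM (lowest, median, highest) at week 1 and at 74.1, 82.5 and 88.2 CPM at week 4. Week 4 lay wholly below week 1 but overlapped week 0. It did not pass the test at week 1 (log2 fold change 0.08, adjusted p = 0.137) and fell by 0.21 ± 0.05 on the log2 scale from week 1 to week 4 (adjusted p = 0.000879). Against week 0 the week 4 fall was 0.13 on the log2 scale (adjusted p = 0.025). That call was lost on leaving out week 0 replicate 3 or 6 or week 4 replicate 5 or 6 (adjusted p = 0.0503 to 0.0686), and with upper-quartile scaling (adjusted p = 0.30).

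Its partner in the N part, NDUFV2, had only 212 counts over all 17 libraries. Its 0.220, 0.202, 0.231, 0.288 and 0.0612 CPM at week 0, and medians of 0.0748 CPM at week 1 and 0.148 CPM at week 4, are next to nothing for a subunit that binds NDUFV1 in the enzyme. The call at week 1 (log2 fold change -1.06 ± 0.46, adjusted p = 0.0443) was lost without any of week 0 replicates 1, 3, 4 and 5 or week 1 replicates 2 to 6 (adjusted p = 0.0590 to 0.118). Its pseudogene entry NDUFV2P1 had 7696 counts and the entry of the antisense gene NDUFV2-AS1 had 739, so the level of NDUFV2 is uncertain.

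In the Q part, NDUFS3 was among the genes that set the untreated libraries apart. It stood at 54.8, 33.4, 49.0, 30.8 and 30.5 CPM in week 0 replicates 1, 3, 4, 5 and 6, at 24.8, 27.6 and 30.6 CPM (lowest, median, highest) at week 1 and at 24.1, 26.7 and 28.2 CPM at week 4. Replicates 1 and 4 were well above the rest, and the other untreated libraries lay at or just above the top of the week 1 range. The fall of 0.59 ± 0.12 on the log2 scale at week 4 (adjusted p = 0.000161) became 0.26 ± 0.06 without the pair (adjusted p = 0.000794), and that of 0.52 at week 1 became 0.20.

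NDUFS8, a carrier of iron-sulfur clusters next to the quinone site, moved late. Its untreated values of 59.9, 55.5, 59.5, 55.1 and 53.8 CPM overlapped the week 1 range of 49.2 to 56.9 CPM (median 54.2), while the week 4 range of 40.6 to 45.9 CPM (median 43.7) lay below both. The log2 fold change was -0.08 ± 0.05 at week 1 (adjusted p = 0.134) and -0.39 ± 0.05 at week 4 (adjusted p = 2.49e-07), and the step from week 1 to week 4 was -0.31 ± 0.05 (adjusted p = 1.34e-05). The pair of untreated libraries made little difference here, with -0.34 ± 0.05 at week 4 without it.

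NDUFS7, a carrier of an iron-sulfur cluster at the quinone site, changed little. It stood at 10.3, 9.59, 9.23, 10.7 and 9.96 CPM at week 0, at 8.83, 11.2 and 11.9 CPM at week 1 and at 8.13, 9.26 and 9.86 CPM at week 4. Its groups overlapped, and only the fall of 0.24 ± 0.07 from week 1 to week 4 was called (adjusted p = 0.0081). At week 1 against week 0 its log2 fold change of 0.12 (adjusted p = 0.144) was called without week 1 replicate 5 (0.18, adjusted p = 0.0215). Per kilobase of the deposited gene length, mean levels at week 0 were 17.7 CPM for NDUFV1, 12.5 for NDUFS8, 10.1 for NDUFS1, 8.81 for NDUFS3, 1.34 for NDUFS7 and 0.074 for NDUFV2.

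**Figure D3:**
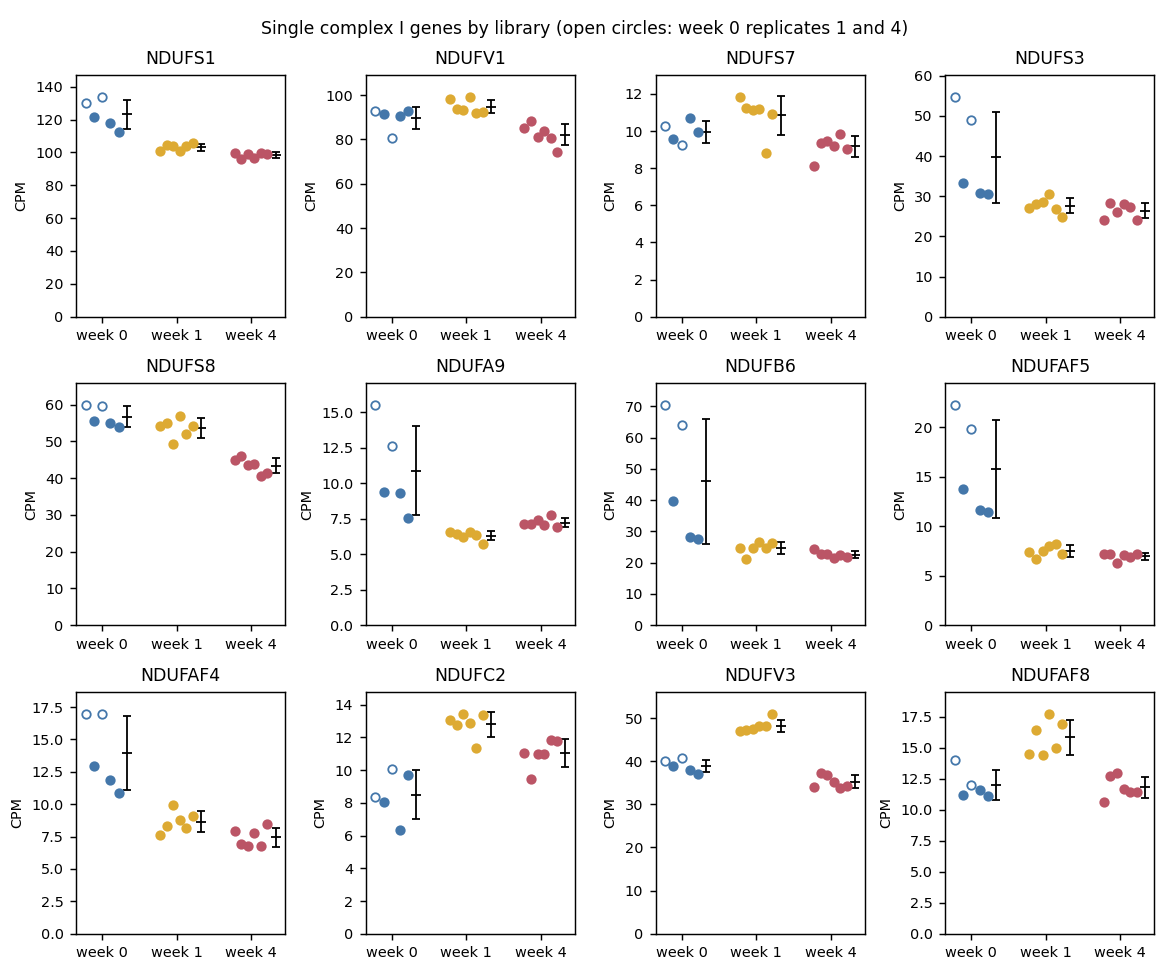
Each panel plots a complex I gene in CPM (TMM-scaled) with a point per library and bars for the mean ± SD of the group, open circles marking week 0 replicates 1 and 4. NDUFS8, NDUFV1 and NDUFV3 have week 4 values below all their week 1 values, while NDUFB6, NDUFAF5 and NDUFAF4 are lower in all treated libraries than in all untreated ones.

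Among the accessory subunits of the matrix arm, all 8 tested members fell at week 4, 6 of them also without the week 0 pair. Over all tested genes 33.7% were called lower with the pair and 31.8% without it. Their median log2 fold change was -0.51 with and -0.21 without the pair. NDUFA9, which sits beside the quinone site, fell early, and its later rise was called only in some settings. It stood at 15.5, 9.42, 12.6, 9.34 and 7.57 CPM in week 0 replicates 1, 3, 4, 5 and 6, at 5.73, 6.40 and 6.58 CPM (lowest, median, highest) at week 1 and at 6.95, 7.14 and 7.73 CPM at week 4. All untreated libraries were above all week 1 libraries, and all week 4 libraries were above all week 1 libraries. The fall at week 1 was 0.79 ± 0.12 on the log2 scale (adjusted p = 7.03e-06) and 0.48 ± 0.08 without the pair. The log2 fold change of 0.20 from week 1 to week 4 was not called with all libraries (adjusted p = 0.199) and was called without the pair (0.20 ± 0.07, adjusted p = 0.0159). With gene length corrected as well, 0 members were called higher in this step.

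NDUFV3, a small subunit of the N part, differed from untreated cells in opposite directions at the treated times. It stood at 39.9, 38.8, 40.7, 37.9 and 37.1 CPM in the untreated libraries, with the week 0 pair highest by a small margin. It then stood at 47.0, 47.8 and 51.0 CPM (lowest, median, highest) at week 1, above all untreated libraries, and at 33.7, 34.7 and 37.2 CPM at week 4, below all week 1 libraries. The log2 fold change was 0.31 ± 0.04 at week 1 (adjusted p = 1.89e-06), -0.14 ± 0.04 at week 4 (adjusted p = 0.00601) and -0.45 ± 0.04 between them (adjusted p = 1.70e-08). The fall at week 4 against week 0 was lost with upper-quartile scaling (-0.08, adjusted p = 0.125).

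NDUFA12 and the assembly factor NDUFAF2, its relative that holds the same place in the unfinished complex, were set side by side. NDUFA12 stood at 64.1, 38.0, 55.8, 36.9 and 34.6 CPM at week 0, at 30.1, 31.9 and 35.5 CPM at week 1 (lowest, median, highest) and at 28.9, 31.1 and 33.3 CPM at week 4. NDUFAF2 stood at 28.2, 20.1, 23.1, 18.2 and 16.8 CPM at week 0, at 18.8, 20.1 and 22.1 CPM at week 1 and at 15, 15.7 and 16.7 CPM at week 4. NDUFA12 fell by week 1 and NDUFAF2 later. NDUFA12 fell by 0.51 ± 0.12 on the log2 scale at week 1 (adjusted p = 0.000538; 0.19 without the pair), and its further difference of -0.04 to week 4 was not called (adjusted p = 0.809). NDUFAF2 had a log2 fold change of -0.07 ± 0.09 at week 1 (adjusted p = 0.529) and fell by 0.36 ± 0.09 from week 1 to week 4 (adjusted p = 0.0026). The difference between the 2 genes was not tested.

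The remaining matrix-arm subunits NDUFA2, NDUFA5, NDUFS4 and NDUFS6 averaged 20.0 to 47.2 CPM at week 1. All 4 fell at week 4, with log2 fold changes from -0.58 for NDUFA2 to -0.27 for NDUFS6. With the pair left out the falls of NDUFA5 (-0.20) and NDUFS6 (-0.26) were called, while NDUFA2 (-0.01, adjusted p = 0.923) and NDUFS4 (-0.08, adjusted p = 0.252) were not. NDUFS6, which helps to join the N part to the rest, fell between weeks 1 and 4 with a log2 fold change of -0.35 (adjusted p = 0.000189), while the other 3 were not called in that step with all libraries. Without the pair NDUFA2 (-0.27, adjusted p = 0.0099) and NDUFS4 (-0.24, adjusted p = 0.000341) were called there. NDUFA7 fell at week 4 (log2 fold change -1.66 ± 0.52, adjusted p = 0.0076), but its week 0 libraries held 0.325, 0.138, 0.139, 0.364 and 0.204 CPM and its week 4 libraries 0 to 0.153 CPM, with a median of 0.0777.

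The accessory subunits of the proximal membrane arm, next to the matrix arm, had the median closest to 0 of the roles at week 4. Of 8 tested, 4 fell and 1 rose at week 4, with a median log2 fold change of -0.21, where 33.7% of all tested genes were lower and 33.9% higher. Without the week 0 pair 2 fell and 2 rose, with a median of 0.02, where 31.8% were lower and 33.1% higher. With all libraries NDUFC2 alone rose at both treated times. It stood at 8.35, 8.04, 10.1, 6.33 and 9.73 CPM at week 0, at 11.3, 13.0 and 13.5 CPM (lowest, median, highest) at week 1 and at 9.49, 11.0 and 11.9 CPM at week 4. All week 1 libraries were above all untreated ones, while week 4 overlapped week 0. The rise was 0.59 ± 0.09 on the log2 scale at week 1 (adjusted p = 8.30e-06) and 0.38 ± 0.09 at week 4 (adjusted p = 0.00122), and without the pair 0.67 and 0.46. The step from week 1 to week 4 had a log2 fold change of -0.22 (adjusted p = 0.0571), which was called on leaving out week 0 replicate 4, 5 or 6 or week 1 replicate 5 (adjusted p = 0.0186 to 0.0469).

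NDUFA1, a small membrane-arm subunit encoded on the X chromosome, stood at 68.5, 43.9, 58.0, 37.7 and 34.3 CPM in week 0 replicates 1, 3, 4, 5 and 6, at 52.5, 56.4 and 66.0 CPM (lowest, median, highest) at week 1 and at 36.9, 42.1 and 45.7 CPM at week 4. Against the 3 lower untreated libraries week 1 is high, against the other 2 it is not. It was not called at week 1 with all libraries (log2 fold change 0.24, adjusted p = 0.0951) and rose by 0.56 ± 0.07 without the pair (adjusted p = 5.06e-07). Leaving out replicate 1 gave 0.40 (adjusted p = 0.00166) and leaving out replicate 4 gave 0.31 (adjusted p = 0.0407). At week 4 against week 0 its log2 fold change of -0.22 (adjusted p = 0.117) was called on leaving out replicate 5 (-0.30, adjusted p = 0.0338) or replicate 6 (-0.33, adjusted p = 0.0132). From week 1 to week 4 it fell by 0.46 ± 0.12 (adjusted p = 0.00329) and its groups did not overlap.

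Of the other members there, NDUFA8, NDUFA10 and NDUFA11 fell both at week 4 against week 0 (log2 fold changes -0.44, -0.20 and -0.40) and from week 1 to week 4 (-0.22, -0.26 and -0.32). With the pair left out the values against week 0 were -0.26, -0.18 and -0.12, and that of NDUFA11 was not called (adjusted p = 0.154). NDUFS5, the most abundant accessory subunit of this set at 176 CPM on average at week 0, had a log2 fold change of -0.32 at week 4 (adjusted p = 0.00839), a call that was lost without the pair (-0.06, adjusted p = 0.396). NDUFC1, the partner of NDUFC2, rose by 0.22 at week 1 and then fell by 0.19 from week 1 to week 4. Without the pair its rise at week 1 was 0.38, and at week 4 against week 0 it was also called higher (0.19, adjusted p = 0.00615).

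In the distal membrane arm, 9 of 11 accessory subunits fell at week 4, with a median log2 fold change of -0.48, where 33.7% of all tested genes were lower. Without the week 0 pair 4 of 11 fell, close to the 31.8% of all tested genes, and the median was -0.11. Among the roles with several members, this was the group whose median moved most with the untreated libraries. NDUFB6 led it. It stood at 70.4, 39.6, 64.0, 28.2 and 27.7 CPM in week 0 replicates 1, 3, 4, 5 and 6, at 21.1, 24.7 and 26.7 CPM (lowest, median, highest) at week 1 and at 21.5, 22.5 and 24.4 CPM at week 4. All untreated libraries lay above all treated ones, replicates 5 and 6 only just. The fall was 0.90 ± 0.18 on the log2 scale at week 1 (adjusted p = 0.000113) and 1.03 ± 0.18 at week 4 (adjusted p = 2.31e-05), and 0.37 ± 0.09 and 0.50 ± 0.09 without the pair.

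NDUFB2 stood at 34.7, 25.7, 31.8, 24.7 and 23.0 CPM at week 0, at 29.0, 30.9 and 32.4 CPM (lowest, median, highest) at week 1 and at 20.2, 23.3 and 24.6 CPM at week 4. Its week 4 libraries lay below all week 1 libraries, and it fell by 0.45 ± 0.08 on the log2 scale between them (adjusted p = 0.000128). At week 1 it was not called with all libraries (log2 fold change 0.14, adjusted p = 0.145) and rose without the pair (0.33 ± 0.06) or without replicate 1 alone (adjusted p = 0.00965). The fall at week 4 against week 0 (0.30, adjusted p = 0.00328) was lost without the pair (-0.11, adjusted p = 0.0994). The other 9 distal members ranged from -0.77 for NDUFB1 and -0.73 for NDUFB3 to 0.04 for NDUFB11 in log2 fold change at week 4, and without the pair NDUFB1 and NDUFB3 stood at -0.36 and -0.35. Between weeks 1 and 4 all 11 log2 fold changes were negative, and NDUFB2 and NDUFB3 were called, where 18.6% of all tested genes were lower. Without the pair 6 members were called, where 22.8% were lower.

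**Figure D4:**
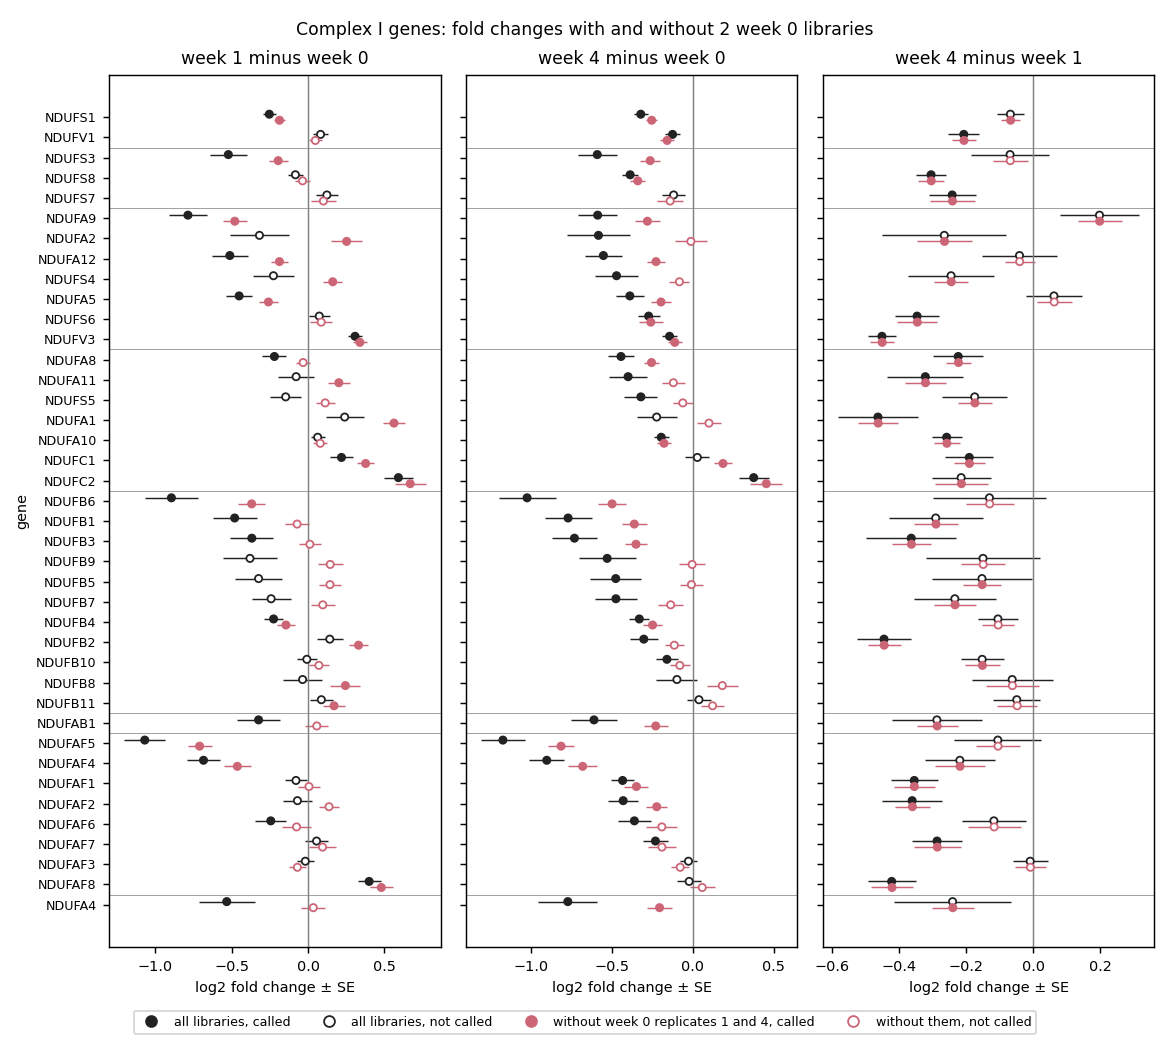
Log2 fold changes ± SE of 40 complex I genes with a mean of at least 5 CPM in the 3 comparisons, black for all libraries and red without week 0 replicates 1 and 4, filled where the adjusted p is under 0.05; thin lines separate roles. In the first and middle panels most red points lie to the right of the black ones, while in the right panel they coincide, with mostly shorter error bars in red.

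Of the 8 assembly factors, 6 fell at week 4, with a median log2 fold change of -0.40, where 33.7% of all tested genes were lower. Without the week 0 pair 4 fell, with a median of -0.21, where 31.8% were lower. NDUFAF5, which hydroxylates NDUFS7 early in assembly, fell most of the members with ample counts. It stood at 22.2, 13.7, 19.8, 11.6 and 11.4 CPM in week 0 replicates 1, 3, 4, 5 and 6, at 6.65, 7.46 and 8.24 CPM (lowest, median, highest) at week 1 and at 6.31, 7.13 and 7.2 CPM at week 4. Even the lowest untreated library was above the highest treated one. The fall was 1.07 ± 0.13 on the log2 scale, or 2.10-fold, at week 1 (adjusted p = 3.02e-07) and 1.18 ± 0.13, or 2.26-fold, at week 4 (adjusted p = 7.82e-08). Without the pair it was 0.71 ± 0.08 and 0.82 ± 0.08, and the step from week 1 to week 4 was not called (log2 fold change -0.11, adjusted p = 0.561).

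NDUFAF4, which works with NDUFAF3 on the quinone-reducing part, stood at 17, 13, 16.9, 11.9 and 10.9 CPM at week 0, at 7.66, 8.55 and 9.97 CPM (lowest, median, highest) at week 1 and at 6.76, 7.37 and 8.45 CPM at week 4. The untreated libraries again lay above all treated ones. It fell by 0.69 ± 0.11 on the log2 scale at week 1 (adjusted p = 6.89e-06) and by 0.90 ± 0.11 at week 4 (adjusted p = 1.43e-07), and by 0.46 and 0.68 without the pair. Its partner NDUFAF3 averaged 24.3, 24.1 and 23.9 CPM at weeks 0, 1 and 4 and was not called in any comparison.

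NDUFAF8, which pairs with NDUFAF5 and stabilises it, moved the other way at week 1. It stood at 14, 11.2, 12, 11.6 and 11.1 CPM at week 0, at 14.4, 15.7 and 17.7 CPM (lowest, median, highest) at week 1 and at 10.7, 11.5 and 13.0 CPM at week 4. Week 1 was above all other libraries of this gene. It rose by 0.40 ± 0.08 on the log2 scale at week 1 (adjusted p = 6.82e-05) and fell by 0.42 ± 0.07 from week 1 to week 4 (adjusted p = 5.53e-05). At week 4 against week 0 it was not called (log2 fold change -0.02, adjusted p = 0.805), though with the correction for gene length it was, at 0.15 (adjusted p = 0.0438). NDUFAF1 and NDUFAF7 fell from week 1 to week 4 by 0.36 and 0.29 on the log2 scale, and NDUFAF6 had a log2 fold change of -0.36 at week 4 against week 0, which was not called without the pair (-0.19, adjusted p = 0.0832).

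NDUFA4 is given apart because its protein belongs to complex IV. It stood at 275, 136, 219, 105 and 93.5 CPM in week 0 replicates 1, 3, 4, 5 and 6, at 107, 113 and 124 CPM (lowest, median, highest) at week 1 and at 90.5, 95.6 and 105 CPM at week 4. Replicates 1 and 4 were far above the rest, while replicates 5 and 6 were below all week 1 libraries. The fall at week 1 (0.53 ± 0.18 on the log2 scale, adjusted p = 0.0139) was lost without replicate 1 (adjusted p = 0.0991) or replicate 4 (adjusted p = 0.0596), and without both the value was 0.03 (adjusted p = 0.72). At week 4 the fall was 0.77 ± 0.18 with and 0.21 ± 0.08 without the pair. The summed complex I level without NDUFA4 was 1669 ± 292 CPM at week 0 (SD, n = 5), 1523 ± 45.6 at week 1 and 1319 ± 46.8 at week 4 (SD, n = 6 each). The acyl carrier protein NDUFAB1, which complex I shares with fatty acid synthesis in the matrix, fell by 0.61 on the log2 scale at week 4 and by 0.23 without the pair.

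The complex I genes NDUFA6, NDUFA3, NDUFV2, NDUFA7 and NDUFA13 were next to silent, each under 2 CPM on average. They held 14, 25, 212, 236 and 1698 counts in all 17 libraries together, although the enzyme contains each of their proteins. NDUFA6 and NDUFA3 did not pass the filter on low counts and were not tested. In the RefSeq gene order NDUFA6 lies beside SMDT1, which had 9 counts, and NDUFA3 beside TFPT, which had 0, while NDUFA7 lies beside RPS28, which had 428935. The 7 mitochondrially encoded complex I entries were listed at 0 in all libraries, as were all 13 protein-coding entries of mitochondrial DNA. The cause of these low entries was not tested, and their levels are not read as expression. The 63 NDUF pseudogene entries held 0.504% to 0.718% of the complex I counts per library. NDUFA5P11 had 8.1% as many counts as NDUFA5 and NDUFAF2P1 5.8% as many as NDUFAF2.

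Other genes of the pathway were counted in the same comparisons. Of 12 assembly factors with other names, 10 fell at week 4 against week 0, with and without the week 0 pair, with median log2 fold changes of -0.64 and -0.48. Of all tested genes, 33.7% were called lower there with all libraries and 31.8% without the pair. TMEM126B, which helps to build the membrane arm, had a log2 fold change of -1.15 (adjusted p = 2.42e-06), and COA1 one of -1.06, which were -0.66 and -0.73 without the pair. At week 1, 11 of these 12 fell (10 without the pair), where 34% of all tested genes were lower (32.1% without the pair). Between weeks 1 and 4, 4 fell and 1 rose, where 18.6% of all tested genes were lower and 21.8% higher. Without the pair 7 fell and 1 rose, where 22.8% were lower and 24.9% higher.

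The other respiratory complexes had medians near that of complex I at week 4 against week 0 with all libraries. There 33.7% of all tested genes were called lower and 33.9% higher. All 4 genes of complex II fell (median log2 fold change -0.50), led by SDHB (-0.55) and SDHD (-0.54). Of 9 complex III genes 6 fell (median -0.41), led by the Rieske protein gene UQCRFS1 (-0.75) and the cytochrome gene CYC1 (-0.69). Of 10 complex IV genes 6 fell (median -0.37), led by COX7A2 (-0.90) and COX7B (-0.84), and of 15 ATP synthase genes 13 fell and 1 rose (median -0.46), with ATP5PB and ATP5MF changed most (-0.69 and -0.67). Without the week 0 pair 4, 5, 4 and 9 genes of these complexes fell and 0, 2, 2 and 1 rose. Of all tested genes, 31.8% were then lower and 33.1% higher. The medians of the complexes without the pair were -0.35, -0.18, -0.08 and -0.19. COX7B and ATP5MF were then not called. In the step from week 1 to week 4, 3, 5, 4 and 4 of their genes fell with all libraries, where 18.6% of all tested genes were called lower, and 3, 8, 8 and 12 without the pair, where 22.8% were.

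Genes that supply cofactors and control differed between lists in their balance of falls and rises. In the comparison of week 4 with week 0 used here, 33.7% of all tested genes were called lower and 33.9% higher. Of 13 iron-sulfur cluster genes 6 fell and 3 rose at week 4, with log2 fold changes of -0.85 for ISCA2 and -0.78 for NFU1. With the pair left out 3 fell and 2 rose, the median was -0.05, and these genes stood at -0.45 and -0.36. In the fit without the pair, also used for the lists below, 31.8% of all tested genes were lower and 33.1% higher. Of 11 ubiquinone synthesis genes 7 fell and 0 rose, with log2 fold changes of -1.51 for COQ2 and -1.35 for COQ3. Without the pair 5 fell and 0 rose (-1.49 and -1.22 for these genes). Of 12 regulators of mitochondrial gene expression 8 fell and 2 rose, and without the pair 10 fell and 2 rose. TFAM, which packages mitochondrial DNA and starts its transcription, averaged 34.1 ± 4.27 CPM at week 0 (SD, n = 5), 13.9 ± 1.16 at week 1 and 15.2 ± 1.68 at week 4 (SD, n = 6 each), with log2 fold changes of -1.29 and -1.16. PPARGC1A, a coactivator of mitochondrial biogenesis, fell by 1.06 at week 4 from only 1.15 CPM. Of 3 matrix proteases, LONP1 rose by 0.34 and CLPP fell by 0.28.

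NDUFA4L2, a relative of NDUFA4 named outside the symbol rule, rose where NDUFA4 fell. It averaged 3.33 ± 0.258 CPM at week 0 (SD, n = 5; range 3.01 to 3.62), 14.5 ± 1.46 at week 1 (range 12 to 16) and 20.4 ± 3.78 at week 4 (SD, n = 6 each; range 16.4 to 27.0). No library overlapped between groups. The rise was 4.34-fold at week 1 and 6.14-fold at week 4 (adjusted p = 4.60e-15), with a log2 fold change of 0.50 from week 1 to week 4 (adjusted p = 0.000252), and the week 0 pair did not alter it (2.64 on the log2 scale at week 4 without the pair, 2.62 with it).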

How the data were processed

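Bulk RNA-seq of 17 libraries was analysed, which the labels place in week 0, week 1 and week 4. The authors deposited raw counts per gene symbol for each library, not normalized, and for 4 libraries also what reads as a gene length. The submitters' processing notes name HISAT2 2.0.5.2, featureCounts 1.4.6 and mm10, a mouse build, although the symbols are human, so the counts were tied to no coordinates. Annotation, strandedness and the handling of multi-mapping reads remain unstated in these notes and in the labels, and genes that share sequence with a copy or overlap another gene are uncertain. The row without a name (0.221% to 0.289% of each library) was left out.

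The main test was edgeR 4.0.16, run in R 4.3.3 on the deposited counts (TMM factors 0.938 to 1.11, filterByExpr by group, 16891 genes kept, a quasi-likelihood fit of all 17 libraries with a mean per group, Benjamini-Hochberg adjustment over all tested genes, calls below an adjusted p of 0.05). Each SE is the size of the log2 fold change over the square root of F. The biological coefficient of variation was 11.7%. Replicate libraries always differed by more than sampling noise (chi-square per gene at least 7.62 over 40 pairs). Alternatives used DESeq2 1.42.0, limma-voom 3.58.1, other scalings, filters, designs, a gene length correction (lowess span 0.3, with lengths from the 4 files) and each library left out. The fits were tested on simulated data. Promoters are from RefSeq on GRCh38.p14 and not from the authors' build.

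Members, gene lists and tests were chosen with earlier results of these data known. Members described singly were the core subunits, the 3 called falls and rises of largest size against each week 0 comparison, the 3 of largest size per comparison called alike with and without the week 0 pair and free of overlap, and NDUFA4, NDUFA12 and NDUFAF2. From each other list the 2 called genes of largest change at week 4 are named. Certain results are not reported here, though the genes stayed in the tests and counts.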

Additional observations from a re-analysis of the deposited data

Results flagged for a closer look

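NDUFV3 differed from week 0 in opposite directions at week 1 and week 4, and the step between them was a log2 fold change of -0.45 (edgeR adjusted p = 1.70e-08), with week 4 below week 1 in 6 of 6 libraries.

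Among 63 groups of libraries tested for an outlier, 8 held a library far from the others by Dixon's test, where chance gives about 1 in 20. NDUFV1 stood at 80.8 CPM in week 0 replicate 4, against 90.4 to 92.7 in the other untreated libraries. NDUFV2 stood at 0.197 CPM in week 1 replicate 1, against at most 0.1 in the other week 1 libraries. In week 1 replicate 5, NDUFS7 stood at 8.83 CPM against 10.9 to 11.9 and NDUFC2 at 11.3 CPM against 12.7 to 13.5. NDUFC2 also stood at 9.49 CPM in week 4 replicate 2, against 11.0 to 11.9. NDUFAF5 stood at 6.31 CPM in week 4 replicate 3, against 6.92 to 7.2. NDUFB6 stood at 21.1 CPM in week 1 replicate 2, against 24.6 to 26.7. NDUFV3 stood at 51.0 CPM in week 1 replicate 6, against 47.0 to 48.3.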

How the results depend on the processing

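Over 31 alternative settings, 1740 of 1853 results of single named members kept their side of the threshold and, apart from 11 that were called under neither setting, their direction, 63 lost a call, 46 gained one and 4 turned. At week 1 the members called lower, called higher and their median log2 fold change went from 16, 4 and -0.18 to 9, 11 and 0.0644 without the week 0 pair, and to 9, 13 and 0.0525 when gene length was corrected as well. Upper-quartile scaling gave 10 higher, where 36.7% of all tested genes were higher. At week 4 against week 0, 2 were higher without the pair, 3 with the length correction and 5 with both, and the median went from -0.39 to -0.18 without the pair and to -0.18 with both. From week 1 to week 4, 29 fell and 1 rose without the pair, 28 fell and 0 rose with the length correction as well, and 32 fell and 1 rose with only these groups fitted. A minimum fold change of 1.2 gave 8 lower and 2 higher at week 1, and 19 and 0 at week 4. It gave 3 lower from week 1 to week 4, and 2347 genes of all called in that step instead of 6835. Of all tested genes, 23.7%, 23.2% and 4.67% were lower in these 3 comparisons. Single members turned as follows: NDUFA4 at week 1 was 0.0344 without the pair and 0.0333 with the length correction as well, NDUFA1 at week 4 was 0.19 with both, and NDUFAF8 at week 4 was 0.15 with the length correction. The cause of these changes was not tested.

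Leaving out each library in turn gave 10 to 22 lower and 3 to 6 higher at week 1 (median -0.26 to -0.07), 30 to 34 lower and 1 higher at week 4 (median -0.43 to -0.30), and 14 to 22 lower and 0 higher from week 1 to week 4 (median -0.23 to -0.21). The libraries deposited without a gene length, in which week 0 keeps replicates 1, 3 and 4, gave 22 lower and 3 higher at week 1. Of all tested genes, 31.4% were then lower and 30.2% higher. Counting only the 41 members with a mean of at least 5 CPM, a choice made after seeing the data, gave 15, 33 and 17 lower. Replicate numbers did not pair the libraries (16 same-number pairs correlated at -0.038 to 0.067), and a replicate block gave 14 lower and 5 higher at week 1, 33 and 1 at week 4 and 18 and 0 from week 1 to week 4. At these depths members under 2 CPM rest on few counts, and the changes of NDUFV2 and NDUFA7 are weakly grounded.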
